A study of Mus musculus with 9 samples.

Results

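The comparison described here sets FoxA2-Venus positive (GFP+) cells from mouse neural tube organoids grown with SAG against FoxA2-Venus negative (GFP-) cells from organoids grown with retinoic acid (RA). It was chosen by the sample labels and takes in 6 of the 9 libraries of the study, 3 biological replicates on each side. Neural tube organoids are small closed epithelia that form from single embryonic stem cells embedded in Matrigel. The cells were of the R1 mouse embryonic stem cell line, a single line, and all of them carried the FoxA2-Venus genotype, a fluorescent reporter of the floor plate gene Foxa2. Organoids grew in N2B27, a serum-free neural medium, which was exchanged at Day 2. Cells were taken 66 h later and sorted by high or low fluorescence. The GFP- cells came from N2B27 with all-trans RA, whose dose is 250 nM in the series text and 250 µM in the treatment protocol. The GFP+ cells came from N2B27 with SAG, a small-molecule agonist of the hedgehog transducer Smoothened, named in the sample titles with no dose, and this medium is taken to lack RA. Sort and medium therefore differ together on the 2 sides, and no difference below can be assigned to either one. The remaining 3 libraries, GFP+ cells from the RA medium, share the medium with one side and the sort gate with the other, and their values are set beside the results. GFP- cells from SAG medium were not analysed here.

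In the embryo, the floor plate at the ventral midline of the neural tube is marked by Foxa2 and secretes Sonic hedgehog. Hedgehog signals, passed on by Smoothened and the Gli transcription factors, switch on ventral progenitor genes in a graded way, while BMP and WNT signals from the roof plate specify dorsal progenitors. RA, acting through nuclear receptors, gives neural cells a posterior identity and activates Hox genes.

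Total counts were 25281871 to 27890617 in the 6 libraries. Levels below are CPM values, that is, each count relative to the scaled size of its library. Correlations of log2 CPM across genes were 0.972 to 0.981 among the GFP- libraries, 0.97 to 0.986 among the SAG libraries and 0.887 to 0.93 between the groups. SAG replicate 1 stood apart from the other 2 SAG libraries. It was over 2-fold above both of them at 162 genes and over 2-fold below both at 232, on the scale of log2(CPM + 1). The same numbers were 8 and 6 for SAG replicate 2 and 27 and 10 for SAG replicate 3. In the GFP- group they were largest for replicate 1, with 119 genes below, and for replicate 3, with 92 genes above. The labels call the libraries biological replicates without saying how the cultures were kept apart. The p-values set each difference against the spread among libraries of a group, estimated from all 9 libraries. Whether that is a spread between independent cultures is not known.

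Of 16772 tested genes, 4787 (28.5%) passed an adjusted p of 0.05 in edgeR's quasi-likelihood test, 2014 (12.0%) higher and 2773 (16.5%) lower in SAG GFP+ cells. These are the called genes, and a gene is said to have risen or fallen, or to be higher or lower in SAG GFP+ over RA GFP- cells, if it was among them. The shares of 12.0% and 16.5% are the background for every count of list members below. More of the strong differences lay on the lower side. A log2 fold change of 4 or more was found for 58 higher genes, and one of -4 or less for 564 lower genes. Of the tested genes, 174 had 0 counts in all SAG libraries and 11 had 0 counts in all GFP- libraries. The median log2 fold change over all tested genes was -0.0087, and the median size over called genes was 1.25. Groups did not overlap for 6885 genes (41.1%), and for 4638 of those called. Without SAG replicate 1 the counts were 2581 higher and 3295 lower. The 18 alternative analyses include those that leave out each of the 9 libraries in turn. For some genes fewer than 18 gave an adjusted p, as for Cdh5 with 17. A call is said below to hold where it passed in the same direction in each alternative that gave the gene an adjusted p. On that reading 1106 genes (6.59%) held as higher and 1773 (10.6%) as lower.

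**Figure D1:**
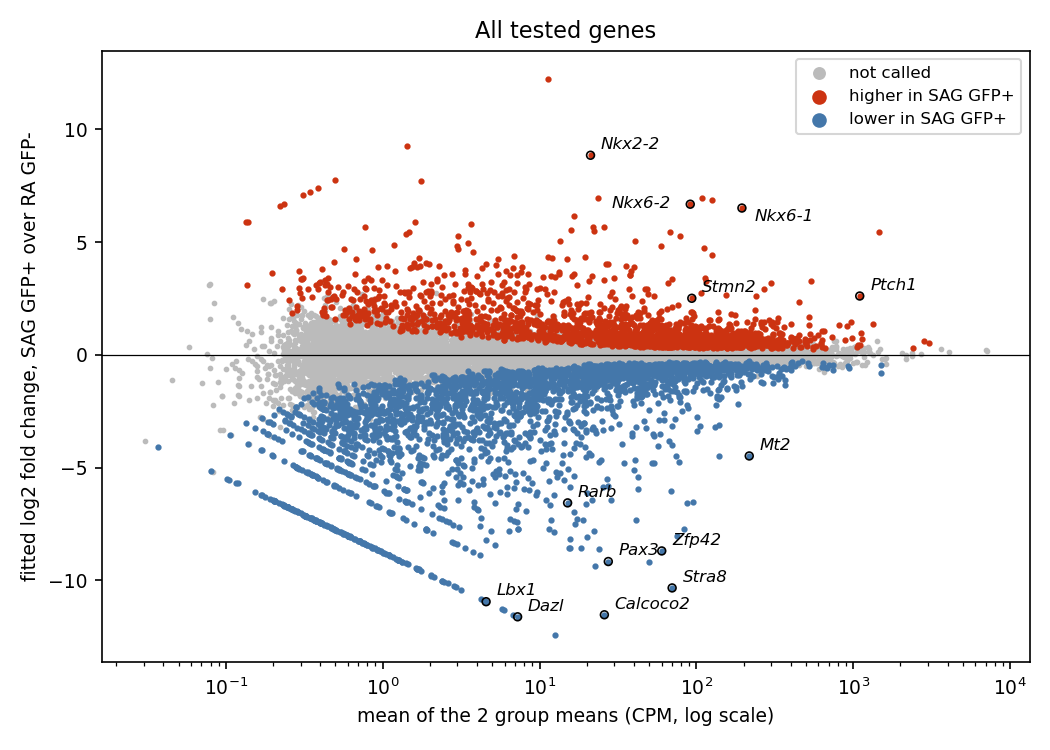
Fitted log2 fold change of SAG GFP+ over RA GFP- (y axis) against the mean of both group means in CPM (x axis, log scale) for the 16772 tested genes, with called genes in colour and some genes named. A log2 fold change of 4 or more was found for 58 higher genes, and one of -4 or less for 564 lower genes. The slanted rows at the lower left are genes with 0 or few counts in the SAG libraries, whose fitted values are no measured size.

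Foxa2 was used for the sort, so its difference is no finding. Annotated as ENSMUSG00000037025 on the minus strand of chromosome 2 (148042877 to 148046969, GRCm38), Foxa2 had 2.47, 1.33 and 2.51 CPM in GFP- replicates 1 to 3 and 326, 212 and 205 CPM in SAG replicates 1 to 3 (log2 fold change 6.87 with an SE of 0.29, adjusted p = 9.76e-08). The gene with the highest fitted fold change lies next to it. The long noncoding RNA gene 9030622O22Rik (chromosome 2, 147944740 to 148040203, minus strand, GRCm38) is on the same strand, 2673 bases beyond the 3′ end of Foxa2. It had 0 counts in the GFP- libraries and 15.8, 27.2 and 24.8 CPM in the SAG libraries, so that it was at least 614-fold higher, taking 3 counts over the group as the floor. In the RA GFP+ libraries it stood at 7.6, 4.81 and 5.16 CPM.

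Floor plate genes were higher in SAG GFP+ cells. Their number includes Foxa2, the gene of the sort, and Nkx2-2, which is counted again among the ventral progenitor genes below. Of 13 tested members, 9 rose and 1 fell, against 12.0% and 16.5% of all genes, with a median log2 fold change of 2.66, and all 10 calls held. Shh, the secreted signal of the floor plate, stood at 0.212, 0.0762 and 0.152 CPM in GFP- replicates 1 to 3 and at 3.01, 8.28 and 6.35 CPM in SAG replicates 1 to 3. The groups did not overlap, and every SAG library was above every GFP- library (log2 fold change 5.27 with an SE of 0.51, adjusted p = 2.47e-05). The RA GFP+ libraries stood higher still, at 15.4, 11.8 and 21.2 CPM, and SAG GFP+ cells differed from them by -1.46 on the log2 scale (adjusted p = 0.0128, and 0.000115 to 0.0498 over 16 alternatives). Foxa1, a paralog of Foxa2, had the same order of groups, with 1.41, 1.91 and 2.51 CPM in GFP-, 7.62, 12.7 and 10.4 in SAG and 32.8, 52.7 and 71.5 in RA GFP+ libraries. It rose by 2.40 on the log2 scale over RA GFP- (SE 0.32, adjusted p = 0.00026). Spon1, which encodes a secreted adhesion protein of the floor plate, rose by 4.81 (SE 0.39, adjusted p = 7.73e-06), and the sulfatase gene Sulf1 by 3.18 (SE 0.20, adjusted p = 9.96e-07). The axon guidance genes Slit3 (3.35), Slit1 (2.66) and Ntn1 (1.35) also rose. Lmx1b, a transcription factor gene, was the member that fell, from 34.3, 37.9 and 33 CPM to 9.45, 18.7 and 14.5 CPM, while RA GFP+ libraries stood at 46.4, 55.3 and 36.9 CPM. Slit2 and Foxj1 were not called. In such bulk samples a larger share of cells of a type and more RNA per cell cannot be told apart.

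Genes of ventral progenitors next to the floor plate were the group with the highest median. All 6 tested members rose, each call held, and the median log2 fold change was 5.62. Nkx2-2 (ENSMUSG00000027434, chromosome 2, 147177546 to 147194243, minus strand, GRCm38), a homeobox gene of the most ventral neuronal progenitors, stood at 0.106, 0.114 and 0.0381 CPM in GFP- replicates 1 to 3. In SAG replicates 1 to 3 it stood at 35.5, 39.5 and 51.5 CPM. Its mean was thus 490-fold higher (log2 fold change 8.85 with an SE of 0.41, adjusted p = 1.39e-07), and RA GFP+ libraries lay between, at 3.21, 2.49 and 1.6 CPM. Nkx6-1, which marks a broader ventral domain, stood at 3.74, 4.53 and 4.45 CPM on the GFP- side and at 307, 445 and 404 CPM in SAG libraries (6.51, SE 0.18, adjusted p = 6.45e-09). Its relative Nkx6-2 went from 0.988, 2.71 and 1.64 CPM to 159, 177 and 208 CPM (6.68, SE 0.35, adjusted p = 3.96e-07), beside 4.23, 7.59 and 4.39 CPM in RA GFP+ libraries. For these 3 genes the SAG libraries did not overlap with either RA group, as was so for 41.1% of all genes against RA GFP- and 42.9% against RA GFP+. Nkx2-9 behaved otherwise with respect to the medium. It stood at 11.5, 8.8 and 3.84 CPM in GFP-, 241, 217 and 190 CPM in SAG GFP+ and 189, 133 and 75.6 CPM in RA GFP+ libraries, and the last 2 groups were not called different (adjusted p = 0.165). Olig2, a gene of motor neuron progenitors, rose by 3.54 (SE 0.72, adjusted p = 0.00356), from 0.565, 1.68 and 1.18 CPM to 21.7, 10.9 and 7.2 CPM, and its neighbour Olig1 by 2.40 (SE 0.52, adjusted p = 0.00517).

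Motor neuron genes were higher as well. Of 8 tested members 6 rose and 1 fell, with a median log2 fold change of 3.51, and 5 of the rises held. Phox2a, a homeobox gene of hindbrain motor neurons, stood at 4.93, 18.8 and 22.5 CPM in SAG against 1.03 to 2.47 CPM in GFP- libraries (3.13, SE 0.52, adjusted p = 0.00103). Tbx20, a T-box gene of cranial motor neurons, stood at 0.177, 0.914 and 0.305 CPM on the GFP- side and at 11.2, 42.7 and 44.5 CPM in SAG libraries (6.14, SE 0.63, adjusted p = 3.67e-05, and 7.08 without RA GFP- replicate 2). Isl1, which all early motor neurons use, rose by 3.89 (SE 0.56, adjusted p = 0.000418). Slc18a3, the vesicular acetylcholine transporter gene, rose by 2.60 (SE 0.61, adjusted p = 0.00803). Chat, the acetylcholine synthesis gene, was called at 3.91, but not without GFP- replicate 1 (adjusted p = 0.06) or replicate 2 (0.0587) or SAG replicate 2 (0.0572) (range over the alternatives 1.03e-06 to 0.06). It was 6.13 without GFP- replicate 3. Isl2 fell by 1.83 on the log2 scale (SE 0.42, adjusted p = 0.00754) and Mnx1, a gene of somatic motor neurons, was not called, with 1.09, 1.41 and 1.56 CPM on the GFP- side against 2.32, 1.91 and 2.34 CPM under SAG. In RA GFP+ libraries Tbx20 stood at 0.549 to 0.628 CPM, while Mnx1 stood at 7.6 to 11.2 CPM.

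**Figure D2:**
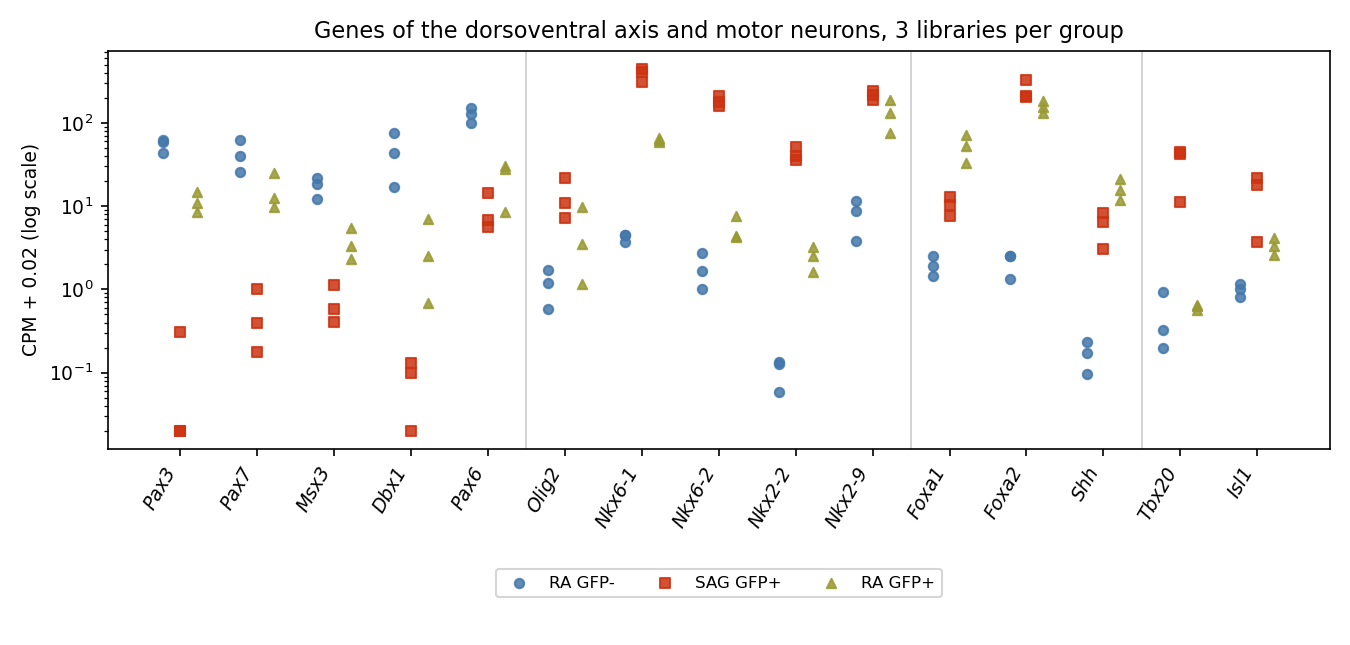
CPM + 0.02 (y axis, log scale) of 15 genes in each library, with 3 points per group for RA GFP-, SAG GFP+ and RA GFP+. From left to right the blocks are dorsal and intermediate genes, ventral progenitor genes, floor plate genes and motor neuron genes, and the SAG points lie below the RA GFP- points in the first block and above them in the other 3.

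Hedgehog-induced genes rose, while other genes of the pathway moved in both directions. All 4 tested hedgehog-induced targets rose, and 3 of these calls held. The receptor gene Ptch1 stood at 273, 328 and 330 CPM on the GFP- side and at 1930, 1740 and 2010 CPM in SAG libraries (log2 fold change 2.61 with an SE of 0.16, adjusted p = 8.99e-07). Among called genes whose groups did not overlap, its gain in mean CPM was second to that of Igfbp5. Its RA GFP+ libraries stood at 1510, 1340 and 1030 CPM. Hhip, which binds the ligand, rose by 2.20 (SE 0.30, adjusted p = 0.000298) and the transcription factor gene Gli1 by 1.28 (SE 0.19, adjusted p = 0.000425). Of 14 other pathway components, 4 rose and 5 fell, and all 9 calls held. The co-receptor genes Boc, Gas1 and Cdon fell together. Boc went from 95, 138 and 150 CPM to 16.4, 19.3 and 17.6 CPM (-2.84, SE 0.19, adjusted p = 2.28e-06), Gas1 from 126, 130 and 155 CPM to 28.6, 20.6 and 23.4 CPM (-2.50, SE 0.23, adjusted p = 1.84e-05), and Cdon fell by 1.49 (SE 0.23, adjusted p = 0.000643). Gli3, whose product mainly represses targets, fell by 1.56 (SE 0.25, adjusted p = 0.00072). Scube2, which helps release the ligand, fell by 4.25 (SE 0.55, adjusted p = 0.000191), and by 5 without SAG replicate 1. The risers were Smo (0.74), Sufu (0.71), Disp1 (0.53) and Lrp2 (1.19), with Smo encoding the protein that SAG binds.

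Dorsal and intermediate progenitor genes were lower in SAG GFP+ cells. Of 13 tested dorsal and roof plate genes, 8 fell and 0 rose, 7 of these calls held, and the median log2 fold change was -2.77. Pax3, a dorsal progenitor gene, stood at 43.1, 61.9 and 59.5 CPM in GFP- replicates 1 to 3 and at 0.285, 0 and 0 CPM in SAG replicates 1 to 3 (-9.16, SE 0.58, adjusted p = 1.34e-06). All SAG counts of Pax3 were in SAG replicate 1, and without that library the fitted value was -13.53, without SAG replicate 2 -8.55. Its paralog Pax7 went from 25.8, 40.1 and 62.7 CPM to 0.978, 0.375 and 0.156 CPM (-6.42, SE 0.60, adjusted p = 1.94e-05, and -7.28 without SAG replicate 1). The RA GFP+ libraries lay between the groups for both, at 8.54 to 14.7 CPM for Pax3 and 9.72 to 25.1 CPM for Pax7. Msx1, Msx2 and Msx3, homeobox genes downstream of BMP, had log2 fold changes of -3.47, -4.19 and -4.67, with Msx1 at -4.82 without SAG replicate 1. Zic1 fell by 1.6. Wnt3a, Olig3, Zic2 and Zic5 were not called. Wnt3a was called lower in limma-voom (-5.41, adjusted p = 0.00974), with no low-count filter (0.000118) and with a replicate block in 6 (0.0207) or 9 libraries (0.0364), and Zic5 in those and in DESeq2. Without SAG replicate 1, Wnt3a (-8.17, adjusted p = 0.000437, range 0.000118 to 0.293), Zic2 (-0.94, adjusted p = 0.00464, range 0.00464 to 0.672) and Zic5 (-1.68, adjusted p = 0.00206, range 0.00206 to 0.196) were called lower. Olig3, of dorsal progenitors, went the other way (1.19, adjusted p = 0.0582) and was called higher in DESeq2 (0.0176), in limma-voom (0.0231), with 6 libraries alone (0.0284), with no low-count filter (7.87e-05) and with a replicate block in 6 (0.00472) or 9 libraries (0.0315). It was so too without GFP- replicate 1 (1.77, adjusted p = 0.0159) and without RA GFP+ replicate 2 (0.037) or 3 (0.0261), over a range of 7.87e-05 to 0.169.

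Among 11 tested intermediate progenitor genes, 9 fell and 0 rose, 7 of these calls held, and the median log2 fold change was -4.32, or -4.2 with genes at 0 set to their bound. Dbx1, of the progenitors at mid height of the tube, went from 16.9, 43.6 and 75 CPM to 0, 0.112 and 0.0779 CPM (-9.34, SE 1.08, adjusted p = 8.61e-05, and -9.96 without SAG replicate 2). Pax6, which is graded across the tube and low in its most ventral cells, stood at 100, 150 and 126 CPM on the GFP- side and at 14.5, 5.58 and 6.73 CPM in SAG libraries (-3.81, SE 0.48, adjusted p = 0.000143). Prdm13, of dorsal interneuron progenitors, went from 26.8, 48.5 and 34.4 CPM to 0.204, 0 and 0.0779 CPM (-8.57, SE 0.79, adjusted p = 1.84e-05). It moved to -9.72 without SAG replicate 1 and -7.96 without replicate 2. Prdm12 had 1 count in all SAG libraries and 442 in the GFP- libraries, a ratio of 421 (exact 95% interval 75.1 to 16700, counting error only). Gsx2 and Ptf1a, of dorsal progenitors, had 0 counts in SAG libraries and were at least 64.4-fold and 18.4-fold lower. Lbx1, which marks dorsal interneurons and belongs to no list, was among the 10 lowest genes, at 7.1, 9.07 and 11.2 CPM in GFP- libraries and 0 in SAG libraries, at least 233-fold lower.

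General neural genes were detected on both sides. Sox2, a factor of neural and of pluripotent stem cells, was not called. It stood at 327 to 418 CPM on the GFP- side and 313 to 383 CPM in SAG libraries. Nes, an intermediate filament gene of neural progenitors, stood at 236 to 371 and 267 to 358 CPM and was not called either. Of 10 tested pan-neural progenitor genes 2 rose, 2 fell and 6 were not called, with a median of 0.11. Over all genes 12.0% were higher and 16.5% lower. Sox1, one of the earliest neural genes, rose from 76.7, 71.6 and 60.9 CPM to 227, 194 and 188 CPM (log2 fold change 1.54 with an SE of 0.15, adjusted p = 2.69e-05), beside 27.6, 33.7 and 39 CPM in RA GFP+ libraries. Prom1, an apical membrane gene, rose by 0.97 (SE 0.22, adjusted p = 0.0059). The Notch target Hes5 fell by 1.46 (SE 0.38, adjusted p = 0.0145).

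Genes of neurogenesis did not move as one. Of 12 tested members 2 rose, 4 fell and 6 were not called, beside 12.0% higher and 16.5% lower over all genes. The proneural genes Neurog1 and Neurog2 fell. Neurog1 went from 18.9, 30.2 and 40.8 CPM to 0.204, 3.33 and 0.662 CPM (-4.40, SE 0.80, adjusted p = 0.0018, and -6.06 without SAG replicate 2), and Neurog2 fell by 2.41 (SE 0.53, adjusted p = 0.0057). Neurod4, of later neuronal precursors, rose from 6.88, 14.9 and 11.5 CPM to 27, 99.8 and 124 CPM (2.92, SE 0.47, adjusted p = 0.000858), and Insm1 by 1.39 (SE 0.32, adjusted p = 0.00787). Among 14 structural genes of neurons 4 rose, 2 fell and 8 were not called. Stmn2, a microtubule regulator of growing axons, rose from 31.2, 30.1 and 22.6 CPM to 174, 107 and 196 CPM (2.51, SE 0.22, adjusted p = 1.45e-05), and stood at 8.27, 6.42 and 6.52 CPM in RA GFP+ libraries. Elavl4 rose by 1.85 (SE 0.41, adjusted p = 0.00579), while Dcx, of migrating young neurons, fell by 1.83 (SE 0.45, adjusted p = 0.0101). Tubb3, a neuronal tubulin gene, was not called, with 134 to 166 CPM on the GFP- side against 57.4, 148 and 101 CPM under SAG. It was called lower without SAG replicate 2 (-0.9, adjusted p = 0.0249) and with no low-count filter (-0.54, adjusted p = 0.0138), over a range of 0.0138 to 0.327. In the Notch pathway 6 of 13 tested members rose and 3 fell, beside 12.0% and 16.5% of all genes. The receptor gene Notch2 (1.35), the glycosyltransferase gene Lfng (0.90) and the repressor genes Hes1 (1.73), Hey1 (1.80) and Hey2 (1.66) rose, and the ligand gene Jag2 fell, all as calls that held.

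Genes of the RA response split within the list, where 5 of 12 tested members fell, 3 rose and 4 were not called. Stra8, an RA-induced gene best known from germ cells entering meiosis, showed the clearest difference. Stra8 (chromosome 6, 34920163 to 34939344, plus strand, GRCm38) stood at 141, 133 and 146 CPM on the GFP- side and at 0.0407, 0.112 and 0.156 CPM in SAG libraries (log2 fold change -10.33 with an SE of 0.34, adjusted p = 1.13e-08), and at 188, 324 and 213 CPM in RA GFP+ libraries. Rarb, a receptor gene that RA induces directly, stood at 19.5, 33.5 and 36.5 CPM on the GFP- side and at 0.0815, 0.337 and 0.506 CPM in SAG libraries (-6.56, SE 0.53, adjusted p = 7.73e-06). Cyp26a1, which encodes an RA-degrading enzyme, went from 21.9, 15.1 and 24.4 CPM to 1.91, 0.562 and 1.48 CPM (-3.96, SE 0.37, adjusted p = 1.94e-05). For all 3 genes the RA GFP+ libraries were at the level of the RA GFP- libraries or above, with Rarb at 18.1 to 44.6 CPM and Cyp26a1 at 20.9 to 29.3 CPM, and SAG GFP+ cells differed from RA GFP+ cells by -11.12, -6.82 and -4.22. These contrasts share the SAG libraries.

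The genes in the list that rose were Cyp26b1, Stra6 and Crabp1. Cyp26b1, a paralog of Cyp26a1, stood at 7.2, 5.3 and 5.29 CPM in GFP-, at 73.2, 81.4 and 53.3 CPM in SAG and at 2.19, 6.72 and 5.41 CPM in RA GFP+ libraries (3.55, SE 0.34, adjusted p = 2.47e-05). Stra6, the retinol transporter gene, rose by 1.51 (SE 0.26, adjusted p = 0.00138). Crabp1, an RA-binding protein gene, was called at 1.33 (adjusted p = 0.0309), a call lost without any 1 of the 3 GFP- libraries (0.0589, 0.0958 and 0.0695) or without SAG replicate 2 (0.0866) or 3 (0.1) (range over the alternatives 3.85e-09 to 0.1). Its relative Crabp2 was called at -1.34 (adjusted p = 0.0175), but not without GFP- replicate 1 (0.0523) or SAG replicate 3 (0.0545) (range over the alternatives 2.24e-09 to 0.0545). Of 8 tested genes of RA synthesis and reception, Rdh10, which makes the RA precursor, rose by 2.11 (SE 0.30, adjusted p = 0.000412), and Rarg was called at -0.85 (adjusted p = 0.0173) but not without GFP- replicate 1 (0.083) or SAG replicate 2 (0.081) or 3 (0.0672) (range over the alternatives 7.13e-05 to 0.083).

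The promoters of Rarb and Cyp26a1, which are among the 5 RA targets that fell, hold a motif in common and are shown for that reason. Of the 12 listed RA targets 9 have a promoter window in the table, and the motif was found in these 2 alone. Each line gives the 100 bases before the start site from the RefSeq promoter table (GRCm38.p6), 5′ to 3′ on the gene's strand, with the match in capitals. The motif searched was GTTCA, then any 5 bases, then AGTTCA, a direct repeat of the kind that RA receptors bind. The stretch of Rarb is chr14:16575477-16575576 on the minus strand and that of Cyp26a1 is chr19:37697708-37697807 on the plus strand.
Rarb: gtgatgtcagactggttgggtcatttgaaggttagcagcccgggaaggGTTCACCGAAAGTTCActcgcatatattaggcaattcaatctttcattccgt
Cyp26a1: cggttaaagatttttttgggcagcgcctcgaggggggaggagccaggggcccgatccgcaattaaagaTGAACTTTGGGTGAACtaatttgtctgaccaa
The match begins 52 bases before the start of Rarb and lies on its own strand, and it begins 32 bases before the start of Cyp26a1 on the opposite strand. Only this form of the repeat was searched, on both strands in windows of 300 bases, so the share covers no other form. The motif was found for 11 of 27025 genes (0.0407%). Of these 11, 4 were tested here, and beside Rarb and Cyp26a1 they were Blvrb (-0.94, adjusted p = 0.014) and Lcorl, which was not called (0.52, adjusted p = 0.187). A match is a description of the letters and no measured binding site. The Gli motif GACCACCCA was found for 78 genes (0.289%), and for 0 of the 2 hedgehog-induced targets that have a window in the table.

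More Hox genes fell than rose, and many were not called. Over all genes 12.0% were higher and 16.5% lower. Of 11 tested genes of paralog groups 1 to 4, 3 rose and 4 fell (median -1.45), and of 17 tested genes of groups 5 to 13, 2 rose and 8 fell (median -1.41). Calls held for 1 and 4 of the first set and for 2 and 3 of the second. Hoxb1, expressed in rhombomere 4 of the hindbrain, rose from 7.17, 3.43 and 5.67 CPM to 27.3, 95.8 and 89.8 CPM (log2 fold change 3.71 with an SE of 0.61, adjusted p = 0.000953). Hoxa4, Hoxb4 and Hoxc4, of the hindbrain to spinal cord boundary, fell together, with log2 fold changes of -2.1, -2.36 and -2.96 (adjusted p = 0.00361, 0.00508 and 0.00232). Hoxc5 stood at 15.4, 15.2 and 53 CPM on the GFP- side and 0.855, 0.637 and 0.273 CPM in SAG libraries (-5.56, SE 0.92, adjusted p = 0.000998, and -4.7 without GFP- replicate 3). Hoxd3 went from 4.31, 14.7 and 22.5 CPM to 0.326, 0.262 and 0.234 CPM (-5.64, SE 0.82, adjusted p = 0.000445), and Hoxd8 fell by 2.77 (SE 0.39, adjusted p = 0.000342). In the same clusters Hoxc8, of the trunk, rose from 0.494, 0.229 and 0.761 CPM to 3.95, 3.6 and 3.23 CPM (2.85, SE 0.52, adjusted p = 0.00184), and Hoxc9 rose by 2.15 (SE 0.49, adjusted p = 0.00703). GFP- replicate 3 had the highest Hox levels of its group for Hoxb4, Hoxc4, Hoxc5 and Hoxd3. In RA GFP+ libraries Hoxc5 stood at 4.9, 12 and 47.5 CPM and Hoxc8 at 5.49, 2.18 and 1.85 CPM.

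**Figure D3:**
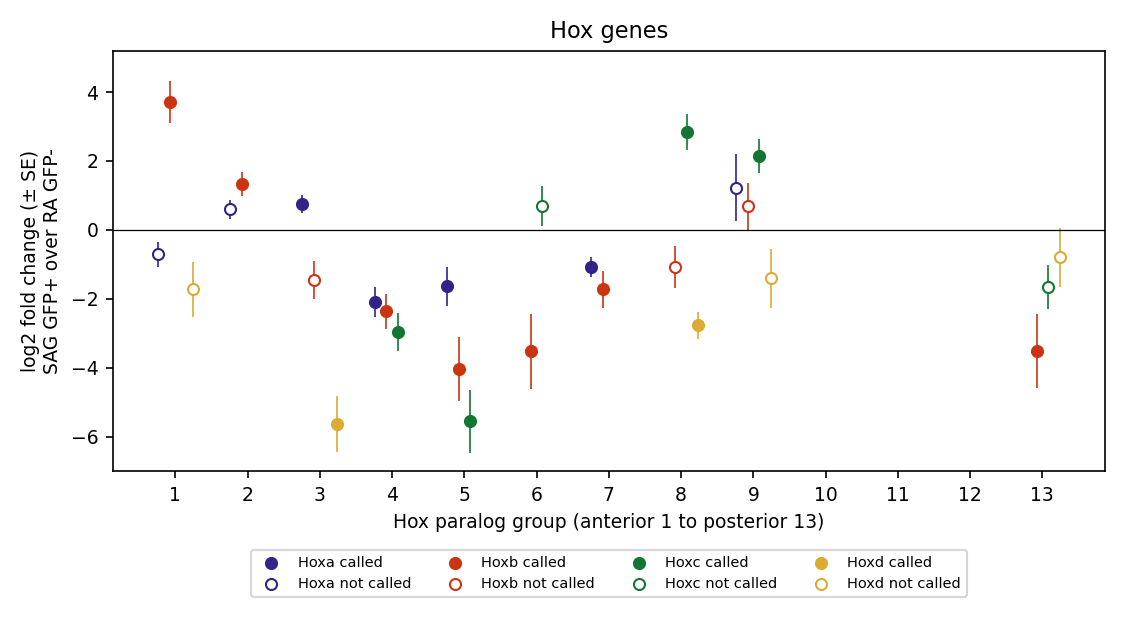
Log2 fold change of SAG GFP+ over RA GFP- (y axis, bars are ± SE of the fit) for the tested Hox genes by paralog group (x axis), with filled points for called and open points for not called genes and a colour per cluster. Hoxb1 stands highest at 3.71, the called genes of groups 4 to 7 all lie below 0, and Hoxc8 and Hoxc9 lie above 0.

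Factors that mark brain regions also divided. Among 11 tested hindbrain factors 4 rose, 1 fell and 6 were not called, and 2 of the rises held. Egr2 (Krox20), of rhombomeres 3 and 5, went from 1.62, 0.991 and 0.228 CPM in GFP- to 83.5, 21.8 and 25.5 CPM in SAG libraries (log2 fold change 5.50 with an SE of 0.66, adjusted p = 0.000109). SAG replicate 1 was highest, and without it the value was 4.64, without GFP- replicate 1 it was 6.17. Egr2 stood at 1.1, 1.61 and 1.01 CPM in RA GFP+ libraries. Epha4, a receptor of rhombomere boundaries that Egr2 controls in the embryo, rose by 0.96 (SE 0.17, adjusted p = 0.00136). Of 15 tested forebrain and midbrain genes 9 fell, 2 rose and 4 were not called, with a median of -2.55. En1 and Pax5, genes of the midbrain to hindbrain boundary, rose. En1 went from 1.62, 0.61 and 2.02 CPM to 6.48, 6.41 and 11 CPM (2.48, SE 0.42, adjusted p = 0.00117), and Pax5 from 1.09, 1.71 and 6.39 CPM to 21.1, 12.6 and 16 CPM (2.44, SE 0.54, adjusted p = 0.00586, and 3.56 without GFP- replicate 3). The related boundary genes En2 and Pax2 fell, with -4.16 (SE 0.44, adjusted p = 4.76e-05) and -3.59 (SE 0.36, adjusted p = 3.42e-05). Lhx5 (-4.92) and Dmbx1 (-2.28) fell too. Hesx1, of the anterior neural plate, had 1 count in SAG and 463 in GFP- libraries, a ratio of 441 (exact 95% interval 78.7 to 17400). In the list of ventral forebrain and hypothalamus 5 of 10 tested members rose and 1 fell, at low levels. Its summed level was 3.88 to 8.58 CPM in GFP-, 13.4 to 23.8 CPM in SAG and 37.5 to 60.5 CPM in RA GFP+ libraries, and Nkx2-1, the defining hypothalamic gene, was not called and stayed at or below 0.353 CPM in both groups. Without GFP- replicate 1 Nkx2-1 was called higher (2.58, adjusted p = 0.0409, range 0.0409 to 0.814).

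Naive pluripotency genes were far lower in SAG GFP+ than in GFP- cells. All 12 tested members fell, against 16.5% of all genes, each call held, and the median log2 fold change was -5.05. The summed level of the list was 663 to 954 CPM in GFP-, 34.1 to 57.9 CPM in SAG and 78 to 87.5 CPM in RA GFP+ libraries. Zfp42 (Rex1), the classical marker of naive embryonic stem cells, stood at 144, 94.1 and 122 CPM on the GFP- side and at 0.204, 0.187 and 0.467 CPM in SAG libraries (-8.69, SE 0.34, adjusted p = 5.41e-08). Esrrb, a nuclear receptor of the naive network, went from 134, 113 and 157 CPM to 2, 2.43 and 1.71 CPM (-6.03, SE 0.25, adjusted p = 7.24e-08). Nanog stood at 225, 139 and 204 CPM in GFP- and kept 26.9, 13.1 and 23.4 CPM in SAG libraries (-3.16, SE 0.39, adjusted p = 0.000129), above the 9.84, 3.13 and 9.38 CPM of the RA GFP+ libraries. Klf2, Klf4 and Klf5, of the same network, fell too (-4.47, -1.3 and -2.07).

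The wider pluripotency list was mixed, with 4 of 12 tested members higher, 5 lower and 3 not called. Pou5f1 (Oct4), shared by naive and primed pluripotent cells, stood at 318, 186 and 190 CPM in GFP- replicates 1 to 3 and at 171, 37.4 and 39.3 CPM in SAG replicates 1 to 3 (-1.49, SE 0.50, adjusted p = 0.0449). The call was lost when any 1 of 7 libraries was left out, with an adjusted p of 0.0546 to 0.162 for them, in DESeq2 (0.063) and with 6 libraries alone (0.063) (range over the alternatives 2.89e-08 to 0.162). Without SAG replicate 1 it was called at -2.57. In RA GFP+ libraries Pou5f1 stood at 5.02, 3.7 and 6.7 CPM, so that SAG GFP+ cells were higher than those by 4 on the log2 scale (adjusted p = 0.000442, and 3.51e-27 to 0.00421 over 16 alternatives). Utf1 and Dppa4, of pluripotent chromatin, fell as well (-4.73 and -4.76). Lin28a and Lin28b, inhibitors of let-7 microRNA maturation, rose by 1.04 (SE 0.24, adjusted p = 0.00723) and 1.36 (SE 0.24, adjusted p = 0.00147). Pou3f1, of the late epiblast and early neural plate, rose from 19.2, 16.2 and 7.73 CPM to 80.7, 75.2 and 70 CPM (2.39, SE 0.27, adjusted p = 8.33e-05).

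Germline and meiosis genes fell as a whole list. All 11 tested members were lower, each call held, and the median log2 fold change was -6.56, also with genes at 0 set to their bound. The summed level of the list was 283 to 379 CPM in GFP-, 335 to 492 CPM in RA GFP+ and 10.2 to 14.2 CPM in SAG libraries. Stra8 and Prdm1 made up much of the RA GFP+ sum, and the median member was lower in RA GFP+ than in RA GFP- cells, by a log2 difference of -1.5. Dazl, an RNA-binding protein gene of germ cells, stood at 21.3, 7.7 and 14.7 CPM in GFP-, had 0 counts in SAG libraries (at least 377-fold lower) and stood at 2.22 to 2.59 CPM in RA GFP+ libraries. Rhox6, an X-linked homeobox gene of germ cells and placenta, stood at 33.3, 24.3 and 17.9 CPM on the GFP- side and at 0 in SAG libraries, at least 650-fold lower, and near-identical Rhox copies make its counts uncertain. Ddx4 (Vasa) went from 11.6, 10.6 and 8.26 CPM to 1.59, 0.862 and 1.28 CPM (-3.03, SE 0.28, adjusted p = 1.61e-05) and stood at 19 to 27.2 CPM in RA GFP+ libraries. Prdm14, which germ cell precursors share with naive stem cells, had 0 counts in SAG libraries and was at least 350-fold lower, from 14.8, 11.2 and 14.9 CPM. Sycp3, of the meiotic chromosome axis, fell by 2.32 (SE 0.49, adjusted p = 0.00454), and Tdrd12 fell by 4.68 (SE 0.30, adjusted p = 1.47e-06).

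The 10 lowest genes, taken among called genes with groups that did not overlap and at least 5 CPM in the higher group, include Rhox6, Dazl, Prdm14 and Lbx1, already given. They were chosen by fitted fold change, and genes at 0 counts have no measured order among themselves. Calcoco2, an autophagy receptor gene, had 1 count in the SAG libraries and 63.3, 53.6 and 38.6 CPM in GFP- libraries, a ratio of 4010 (exact 95% interval 719 to 158000). The others had 0 counts in SAG libraries. Ooep, of oocytes, was at least 307-fold lower, Mymx, of muscle fusion, at least 299-fold, Gm5039 at least 233-fold, the ribosomal protein gene Rpl39l at least 219-fold and the keratin gene Krt42 at least 166-fold. Rpl39l is a close copy of another ribosomal gene, and how the counting shared reads between copies is not given. Among called genes whose groups did not overlap, the largest loss in mean CPM was in the chaperone gene Hsp90aa1. It went from 2190, 1870 and 1710 CPM to 1260, 932 and 1110 CPM (log2 fold change -0.81 with an SE of 0.13, adjusted p = 0.00102). The metallothionein gene Mt2 went from 568, 408 and 272 CPM to 20.2, 21.7 and 13.8 CPM (log2 fold change -4.48 with an SE of 0.34, adjusted p = 4.61e-06). Among the 10 highest genes, Timp4, an inhibitor of matrix proteases, stood at 0.918, 0.152 and 0.0381 CPM on the GFP- side and at 45.1, 52.9 and 43.3 CPM in SAG libraries (6.94, SE 0.60, adjusted p = 1.23e-05, and 8.9 without GFP- replicate 1). It stood at 0.0698 to 0.314 CPM in RA GFP+ libraries. Igfbp5, which binds insulin-like growth factors, rose from 56.6, 64.4 and 78 CPM to 1910, 3240 and 3470 CPM (5.44, SE 0.25, adjusted p = 1.46e-07), with 1110 to 1480 CPM in RA GFP+ libraries. Its gain in mean CPM was the largest among called genes whose groups did not overlap.

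**Figure D4:**
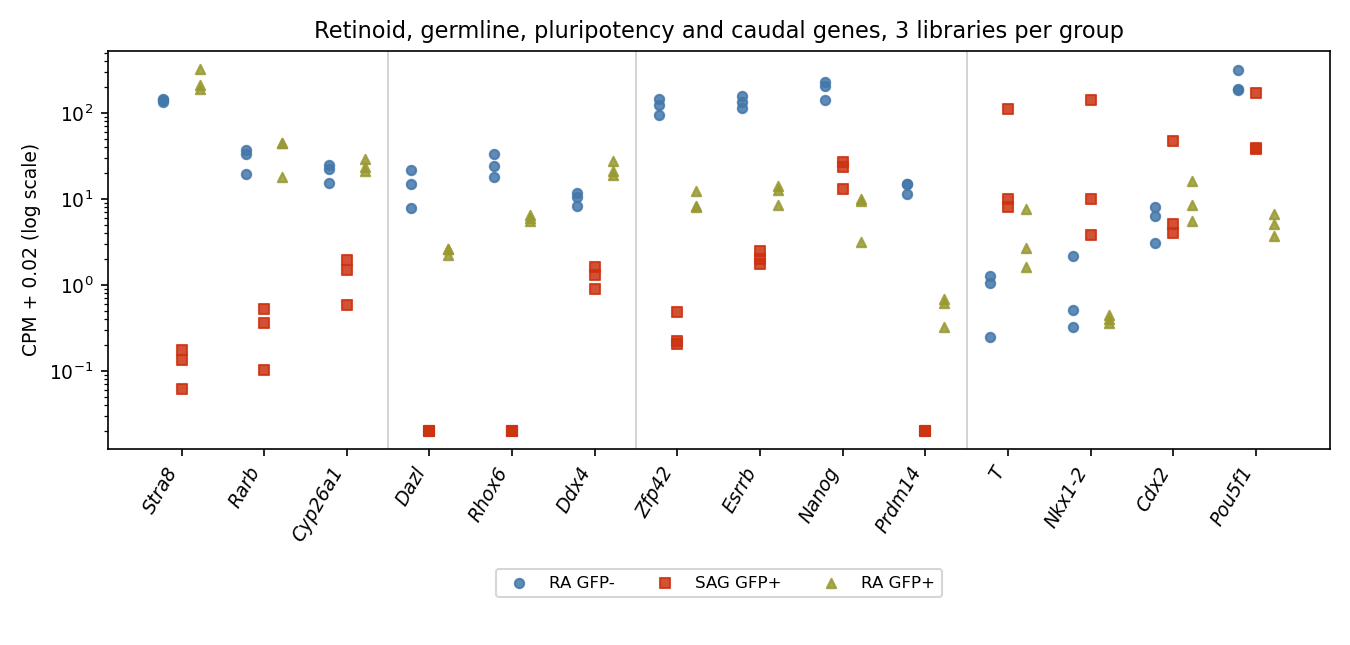
CPM + 0.02 (y axis, log scale) of 14 genes in each library, with 3 points per group. The blocks from left to right are RA response genes, germline genes, naive pluripotency genes, and caudal genes with Pou5f1; the first 2 blocks are low in SAG GFP+ libraries alone except for Dazl and Rhox6, which are also lower in RA GFP+ libraries, and in the last block 1 SAG point, replicate 1, lies far above the other 2.

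Genes of the caudal epiblast, the source of spinal cord and trunk mesoderm, varied widely among the SAG libraries, and their summed level was highest in SAG replicate 1. Of 7 tested members 3 rose and 4 were not called, and 1 call held. The summed level of the list was 17.8 to 33.7 CPM on the GFP- side and 25.3 to 327 CPM in SAG libraries. T (Brachyury) stood at 1.24, 1.03 and 0.228 CPM on the GFP- side and at 110, 7.94 and 9.81 CPM in SAG replicates 1 to 3 (log2 fold change 5.67 with an SE of 1.12, adjusted p = 0.00309). Without SAG replicate 1 it was 3.43 and still called. Nkx1-2, of caudal neural progenitors, stood at 139, 9.93 and 3.78 CPM in SAG and 2.12, 0.495 and 0.305 CPM in GFP- libraries (5.68, SE 1.23, adjusted p = 0.00531). It was 2.81 and still called without SAG replicate 1 (adjusted p = 0.00868), 6.99 without GFP- replicate 1, and not called by limma-voom (4.56, adjusted p = 0.0951) (range over the alternatives 1.41e-18 to 0.0951). Fgf8, of the tail bud and the midbrain to hindbrain boundary, was called at 1.96 (adjusted p = 0.0378), but not without SAG replicate 1 (1.14, adjusted p = 0.143) or GFP- replicate 2 (0.119) or 3 (0.0998) (range over the alternatives 1.63e-06 to 0.143). It was 2.85 without GFP- replicate 1. Cdx2, a caudal homeobox gene, was not called, with 47.5, 5.06 and 3.97 CPM in the SAG libraries against 7.91, 6.32 and 3.01 CPM in GFP- libraries. Its log2 value of 1.71 turned to -0.33 without SAG replicate 1 (adjusted p = 0.62), and with no low-count filter it was called at 1.72 (0.000105), the ends of its range over the alternatives. Its paralog Cdx1 had 5.44, 3.24 and 6.01 CPM on the GFP- side against 3.26, 0.15 and 0 CPM under SAG, and was not called (-2.12, adjusted p = 0.122). Without SAG replicate 1 it was called lower (-5.9, adjusted p = 0.000135), as it was in limma-voom (-4.46, 0.011), with no low-count filter (0.000348) and with a replicate block in 6 (0.0494) or 9 libraries (0.0392), over a range of 0.000135 to 0.286. SAG replicate 1 was the lowest of the 3 SAG libraries at Tbx20, Isl1, Hoxb1 and Neurod4.

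BMP genes were lower on the target side. Of 10 tested BMP targets 6 fell and 0 rose, all 6 calls held, and the median log2 fold change was -1.21. The 6 include Msx1 and Msx2, which are also counted among the dorsal genes above. Id2, Id4, Smad9 and Bambi were not called. Id3 and Id1, inhibitors of differentiation, fell by 1.56 (SE 0.17, adjusted p = 5.81e-05) and 0.88 (SE 0.21, adjusted p = 0.00896), and the feedback inhibitors Smad6 and Smad7 by 1.59 and 1.53. The summed level was 193 to 202 CPM in SAG libraries, 372 to 466 CPM on the GFP- side and 308 to 435 CPM in RA GFP+ libraries. Of 13 ligands and antagonists 4 rose and 5 fell. Bmp4 went from 22.5, 13 and 10.5 CPM to 0.611, 0.112 and 0.506 CPM (-5.23, SE 0.44, adjusted p = 1.06e-05), with 42.4 to 58.2 CPM in RA GFP+ libraries. The antagonist genes Fst (2.68, SE 0.38, adjusted p = 0.000364) and Chrdl1 (2.31, SE 0.46, adjusted p = 0.00316) rose, as did the ligand genes Bmp7 (1.22) and Bmp5 (3.34). Of 10 tested Nodal and TGF-beta genes 7 fell and 1 was called higher, with a median of -2.62. Gdf3, a Nodal-related ligand of pluripotent cells, went from 57.2, 37.1 and 27.8 CPM to 3.26, 0.974 and 1.44 CPM (-4.43, SE 0.50, adjusted p = 7.28e-05, and -5.05 without SAG replicate 1). Nodal itself (-3.33) and the antagonist gene Lefty2 (-3.94) fell, or -4.82 and -5.6 without SAG replicate 1. Inhbb had 2 counts in SAG and 204 in GFP- libraries, a ratio of 97.1 (exact 95% interval 26.5 to 807).

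WNT and FGF genes moved in both directions. The counts here stand beside 12.0% higher and 16.5% lower over all genes. Of 16 tested WNT ligands and antagonists 6 fell, 1 rose and 9 were not called. The riser was the WNT antagonist Sfrp1, from 87.5, 130 and 85.6 CPM to 689, 1030 and 1210 CPM (log2 fold change 3.27 with an SE of 0.24, adjusted p = 4.15e-06), while RA GFP+ libraries stood at 46.7 to 67.1 CPM. Its relatives Sfrp2 and Sfrp5 fell by 1.39 and 3.16. Wnt7b, a ligand, went from 24, 34.9 and 35.2 CPM to 0.0407, 0.0749 and 0.195 CPM (-8.17, SE 0.64, adjusted p = 6.2e-06, and -8.94 without SAG replicate 3), and Wnt4 fell by 2.32. Of 11 tested WNT targets 8, among them Axin2, were not called, while Lef1 rose by 1.85 (2.46 without GFP- replicate 1) and Apcdd1 by 1.19. Notum, a secreted WNT inhibitor, was called lower (-2.85, adjusted p = 0.0153), but not without GFP- replicate 1 (0.0658) or SAG replicate 3 (0.0609), over a range of 5.74e-09 to 0.0658. It was -4.46 without SAG replicate 1 and -3.47 in limma-voom. In the FGF list 8 of 15 tested members rose and 4 fell, with 5 and 2 calls that held. Fgf15, a ligand of the neural tube, rose from 30, 14.6 and 19.3 CPM to 207, 211 and 208 CPM (3.29, SE 0.31, adjusted p = 2.18e-05), and stood at 6.75 to 16.3 CPM in RA GFP+ libraries. Its 3 SAG libraries lay close together and far above all others. The feedback genes Spry2, Il17rd and Spred1 also rose, and Fgf4, the ligand of pluripotent cells, fell by 3.30 (SE 0.37, adjusted p = 6.34e-05) and Etv5 fell as well.

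**Figure D5:**
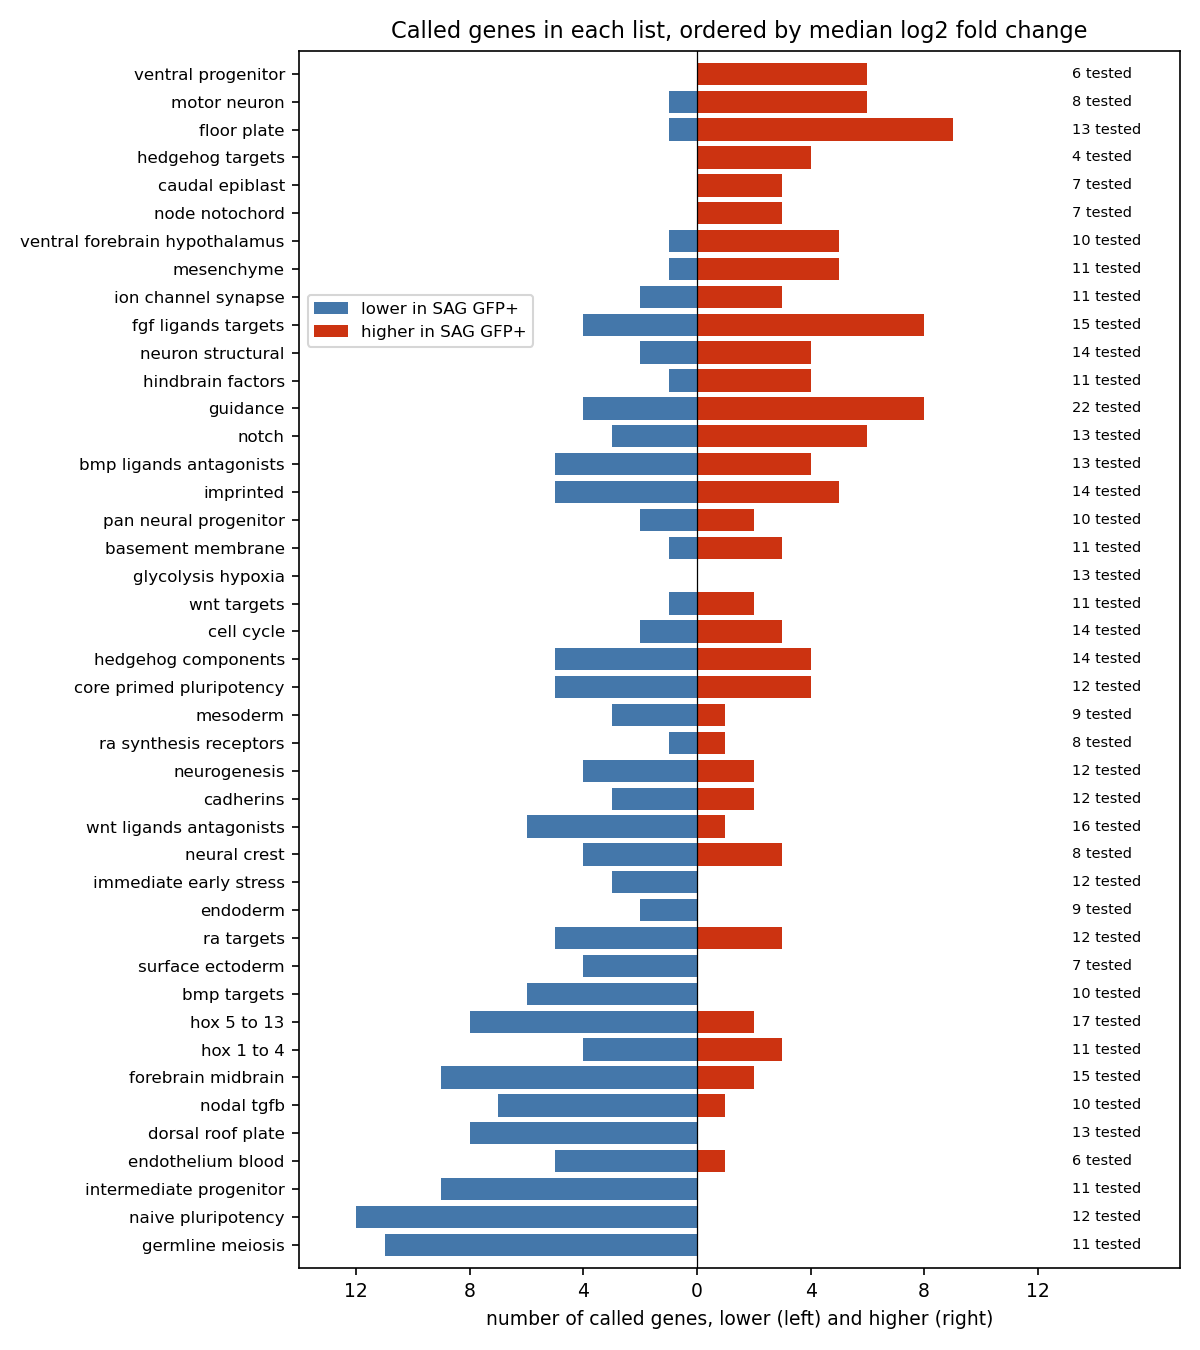
Number of called genes in each of the 43 gene lists, with lower genes drawn to the left and higher genes to the right of 0 (x axis) and lists ordered by their median log2 fold change (y axis). The number of tested members is printed beside each bar; ventral progenitor genes stand at the top with 6 of 6 higher, and germline genes at the bottom with 11 of 11 lower.

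Markers of other cell types were read for what the gates could hold. In the endoderm list, 0 of 9 tested members rose and no call held. Sox17 stood at 0.991 to 1.69 CPM on the GFP- side and 0.0389 to 0.896 CPM in SAG libraries, against 34.6, 49 and 55.3 CPM in RA GFP+ libraries. It was called lower (-1.66, adjusted p = 0.0453), a call lost in DESeq2 (0.069), limma-voom (0.0636) and with 6 libraries alone (0.14), and when any 1 library other than SAG replicate 1 was left out (0.0508 to 0.143) (range over the alternatives 0.000202 to 0.143). Without SAG replicate 1 it was called at -2.75. Afp, of yolk sac and liver, had 0 counts in both groups. The node and notochord list gave 3 of 7 higher, which were T, Shh and Foxa2, while Chrd and Nog were not called. Of 6 tested endothelial and blood genes 5 fell and 1 rose, and Pecam1, an adhesion molecule that embryonic stem cells also carry, went from 59.5, 40.7 and 68.4 CPM to 0.611, 0.524 and 0.779 CPM (log2 fold change -6.45 with an SE of 0.30, adjusted p = 1.39e-07). The endothelial gene Cdh5 stood at or below 0.918 CPM in GFP- libraries and at 0 in SAG libraries. Of 9 mesoderm genes 3 fell and 1 rose, and Hand1 had 1 count in SAG and 686 in GFP- libraries, a ratio of 653 (exact 95% interval 117 to 25800). In the mesenchyme list 5 of 11 rose and 1 fell, at summed levels of 28 to 30.3 CPM in GFP-, 41.5 to 65.1 CPM in SAG and 95.1 to 102 CPM in RA GFP+ libraries. Foxf1, of splanchnic mesenchyme, rose from 0.388, 0.762 and 0.381 CPM to 5.38, 6.11 and 7.2 CPM (3.60, SE 0.37, adjusted p = 3.99e-05), and the defining genes Pdgfra, Pdgfrb and Prrx1 were not called. Pdgfra was called higher without SAG replicate 1 (1.05, adjusted p = 0.028, range 0.028 to 0.236). It was so too with no low-count filter (0.0319) and with a replicate block in 9 libraries (0.0407). Prrx1 was called higher without GFP- replicate 2 (1.82, adjusted p = 0.0435, range 0.0435 to 0.371). The 8 neural crest genes gave 3 higher and 4 lower, with Ets1 higher and Foxd3 and Tfap2b lower as the calls that held (Foxd3 -4.33, and -5.14 without SAG replicate 1). Of 7 surface ectoderm genes 4 fell and 0 rose, among them Krt8 (-2.21), Krt18 (-1.21) and Grhl3 (-3.36), while Trp63, the defining gene of the lineage, was not called. What part such cells have in the differences above was not tested.

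Genes of cell contacts and axon guidance changed without one direction. The counts here stand beside 12.0% higher and 16.5% lower over all genes. Of 22 tested guidance genes 8 rose and 4 fell. Besides the floor plate members, the semaphorin gene Sema5a rose by 1.90 (SE 0.26, adjusted p = 0.000273), and the receptor genes Robo1 (-1.07, SE 0.21, adjusted p = 0.00278) and Unc5c (-2, SE 0.31, adjusted p = 0.000715) fell. Robo3, of axons that cross the midline, went from 13.5, 38.5 and 61.7 CPM to 0.53, 0.187 and 0 CPM (-7.30, SE 0.91, adjusted p = 0.000139). It was -8.54 without SAG replicate 1 and -6.71 without SAG replicate 3. Of 12 cadherins 2 rose, 3 fell and 7, with the neural Cdh2 and the epithelial Cdh1 among them, were not called. Cdh2 was called higher without SAG replicate 1 (0.62, adjusted p = 0.0293, range 0.00266 to 0.218). It was so too with no low-count filter (0.0081) and with a replicate block in 6 (0.0168) or 9 libraries (0.00266). Cdh1 stood at 127 CPM in SAG replicate 1 and at 30.3 and 49.8 CPM in the other 2 SAG libraries. Of 11 basement membrane genes 7 were not called. Among 11 tested genes of ion channels and synapses 3 rose and 2 fell, and the potassium channel gene Kcnj3 rose from 0.883, 0.8 and 0.305 CPM to 40.9, 23 and 29.8 CPM (5.54, SE 0.37, adjusted p = 2.2e-06), with 0.235 to 0.314 CPM in RA GFP+ libraries.

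Imprinted genes, which are expressed from 1 parental copy, went both ways, with 5 of 14 tested members higher and 5 lower. Over all genes 12.0% were higher and 16.5% lower. H19 went from 170, 97.1 and 128 CPM to 0.978, 5.99 and 17.4 CPM (log2 fold change -4.01 with an SE of 0.69, adjusted p = 0.00131, and -5.21 without SAG replicate 3), and its neighbour Igf2 fell by 1.87 (SE 0.32, adjusted p = 0.00124). Phlda2, a placental growth regulator, went from 49.5, 39.8 and 23.9 CPM to 1.79, 1.54 and 1.56 CPM (-4.53, SE 0.33, adjusted p = 3.79e-06). Meg3 (1.6), Peg3 (1.39), Grb10 (1.35) and Plagl1 rose, and these calls held.

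Of 14 tested cell cycle genes 3 rose, 2 fell and 9 were not called, beside 28.5% of all genes called, with a median of -0.06, and 3 of the calls held. Ccnd1, a G1 cyclin, rose by 0.87 (SE 0.11, adjusted p = 0.000132), and Ccne1 and Ccnd3 fell by 0.97 and 0.90. Of 12 immediate early and stress genes 3 fell and 0 rose, beside 16.5% and 12.0% of all genes. The 3 were Junb, which fell by 1.89, Egr1, which fell by 2.13, and Dusp1, which fell by 0.98. In the list of glycolysis and hypoxia genes, 0 of 13 were called in edgeR, DESeq2 or limma-voom, and 0 had an unadjusted p under 0.05 in edgeR. Without GFP- replicate 3, 1 was called higher, and with no low-count filter 1 was called in each direction. Its summed level ran from 2980 to 8910 CPM in GFP- and from 4000 to 7640 CPM in SAG libraries. Ldha, which makes lactate, stood at 1090, 137 and 1410 CPM in GFP- replicates 1 to 3, at 666, 1350 and 1400 CPM in SAG replicates 1 to 3 and at 930, 116 and 1370 CPM in RA GFP+ replicates 1 to 3, so that replicate 2 was low in both RA groups.

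The RA GFP+ libraries place the main differences by sort and by medium only as levels side by side, since each contrast shares a group with the others. Between SAG GFP+ and RA GFP+ cells 24.5% of tested genes were called, 9.78% higher and 14.8% lower in SAG GFP+ cells. At Foxa2 the RA GFP+ libraries stood at 133 to 184 CPM, near the SAG GFP+ libraries. At Zfp42 they stood at 7.93 to 12.2 CPM, between the SAG libraries and the GFP- libraries. For Stra8, Rarb and Cyp26a1 they stood with the GFP- libraries. At Tbx20, Egr2 and Nkx6-2 they stood far below the SAG libraries, by log2 differences of 5.78, 5.12 and 5.06, and Stmn2 (4.49) and Sox1 (2.6) had the same order. Msx1 was above both other groups in RA GFP+ libraries, at 37.1 to 76.7 CPM.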

How the data were processed

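Poly(A) RNA of sorted cells was sequenced from directional libraries, per the labels' protocols. As deposited, the values are unnormalized counts for 54532 Ensembl genes in 9 libraries, and of these genes 54495 were given a symbol and coordinates from the GENCODE annotation of GRCm38. The authors made them with Bowtie2 2.3.4.1, Trim Galore 0.5.0 and, from Subread 1.6.2, featureCounts on GRCm38, per the submitters' processing notes. The strand setting and the treatment of reads with several matches are not stated in the labels, so overlapping genes and close copies are uncertain.

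From the counts, 16772 genes passed edgeR's filterByExpr with a minimum count of 10. One edgeR 4.0.16 quasi-likelihood model (R 4.3.3, TMM scaling, Benjamini-Hochberg adjustment over all tested genes) was fitted to all 9 libraries, so that the 3 groups share 1 estimate of spread, and SAG GFP+ was set against RA GFP-. The SE is the size of the log2 fold change over the square root of F. The code was tested on simulated data. A gene with 0 counts in a group is given a bound against 3 counts over that group, and one with 1 to 3 counts a ratio with an exact 95% interval, both covering counting error only. The 18 alternatives were 2 other scalings, no low-count filter, a filter of CPM over 1 in 3 libraries, DESeq2 1.42.0, limma 3.58.1 voom, the 6 libraries alone, 2 fits with the replicate number as a block and each of the 9 libraries left out.

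The comparison, the 43 gene lists and the alternatives were chosen with earlier results of these data known. Genes were named by rule as Foxa2, the 10 highest and 10 lowest fold changes among called genes that reach 5 CPM and whose groups do not overlap, the 5 largest gains and losses in CPM, and for each list its 2 called members of lowest adjusted p (where none was called, its member of lowest p) (104 genes). Not all of these are described, and other genes named were chosen after their values were seen. Some items are not reported here.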

Additional observations from a re-analysis of the deposited data

How the results depend on the processing

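Over the 18 alternatives the number of higher genes ran from 1351 to 2737 against 2014, and that of lower genes from 2014 to 3441 against 2773, each within 1.5 times. Leaving out single libraries gave 1351 higher and 2014 lower genes without SAG replicate 2, and 2581 and 3295 without SAG replicate 1. DESeq2 gave 2412 and 3119, limma-voom 2104 and 2815, upper-quartile scaling 1819 and 2973, and the 6 libraries alone 1521 and 2285. Deviations of same-numbered SAG and GFP- libraries correlated at 0.175, -0.0218 and 0.242 across genes, and those of other pairs at -0.302 to 0.139. Replicates 1 and 3 thus correlated best with their own number, and replicate 2 did not. The main fit did not take the replicate numbers to pair the 2 groups compared. For the RA groups, which enter the same fit, the same-numbered correlations were 0.273, 0.307 and 0.347, and each RA library correlated best with its own number. The fit without a block treats those libraries as independent. With the replicate number as a block the counts were 1999 and 2717 in 6 libraries and 2737 and 3441 in 9. For the 104 genes named by rule, 1836 of 1870 alternative values kept direction and side of the threshold, 34 fell short of it and 0 reversed. Those 34 belong to 8 genes, which are Crabp2, Hnf4a, Nedd4, Nkx1-2, Rarg, Rplp1, Rps14 and Sox17. The 104 genes were picked mostly for small adjusted p or large change in the same fit, so their stability does not stand for other called genes. Over all called genes, 1106 of 2014 higher and 1773 of 2773 lower calls held. Where a left-out library leaves 2 in a group, the fit assumes that they vary like the other groups. Depth limits the bounds: 3 counts over a group are 0.0371 CPM for GFP- and 0.039 CPM for SAG libraries.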
